A study of Rattus norvegicus with 14 samples.

Results

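The genes of transforming growth factor beta (TGF-beta) and bone morphogenetic protein (BMP) signalling examined here are 10 listed members. They are the ligand genes Tgfb1, Tgfb2, Tgfb3, Bmp4 and Inhba, the secreted antagonist gene Nbl1, the type I receptor genes Tgfbr1, Acvr1 and Bmpr1a, and the type II receptor gene Bmpr2. All probe sets whose only gene symbol in the array's annotation is one of these were taken. This gave 12 of the 15923 probe sets, for 10 of the 10412 genes that the annotation names singly. Tgfb2 and Tgfbr1 have 2 probe sets each and the other 8 genes have 1.

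RNA came from the microdissected dentate gyrus of 14 male Long-Evans rats, 3 to 4 months old, with 1 Affymetrix RAE230A array per rat. All had been trained in a standard water maze and, 2 to 3 weeks later, had 1 session of 8 trials in an unfamiliar pool. The 7 learning rats swam to a visible platform in a fixed place among spatial cues, and the 7 control rats to a visible platform that moved, without informative cues. Both groups then swam a probe trial of 90 s, 1 h after training, and were killed right after it, so the control rats had also swum and there is no untrained group. The deposited values are log2 expression levels from GCRMA, according to the submitters' processing notes, and all differences below are learning minus control in log2 units. The fit covered 9387 probe sets, those averaging 4 or more across all arrays. The number of arrays, 7 per group, limits the precision.

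Ligands of this family are secreted dimers that bring together type II and type I receptor kinases. The type II receptor phosphorylates the type I receptor, which phosphorylates Smad proteins that enter the nucleus with Smad4: Smad2 and Smad3 for TGF-beta and activin, Smad1, Smad5 and Smad9 for BMPs. Secreted antagonists such as noggin bind BMPs and keep them from their receptors. In the adult dentate gyrus BMP signalling is known to hold neural stem cells in quiescence and noggin to oppose it, and activin is known as an activity-induced ligand of hippocampal neurons.

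Bmpr2, which encodes the type II receptor shared by many BMPs, and Nbl1, which encodes a secreted BMP antagonist of the DAN family, had the lowest p values of the 12 probe sets, and both were lower in learning rats. Neither passed adjustment over all probe sets tested (adjusted p = 0.242 and 0.266 in limma). The 250 bases upstream of the annotated start of each are shown only because their p values were the lowest. Capitals mark matches on either strand to 3 short motifs, the Smad box CAGAC, the GC-rich Smad motif GGCGCC and the cAMP-response half-site TGACG. The sequences are RefSeq's for build GRCr8, 5′ to 3′ along the gene, chr9:68686566-68686815 on the plus strand for Bmpr2 and chr5:156613183-156613432 on the minus strand for Nbl1.
Bmpr2: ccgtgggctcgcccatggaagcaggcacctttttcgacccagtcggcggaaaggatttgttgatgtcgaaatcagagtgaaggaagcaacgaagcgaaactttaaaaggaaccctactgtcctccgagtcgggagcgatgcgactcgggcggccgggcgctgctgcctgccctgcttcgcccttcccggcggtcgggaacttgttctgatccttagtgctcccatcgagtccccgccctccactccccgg
Nbl1: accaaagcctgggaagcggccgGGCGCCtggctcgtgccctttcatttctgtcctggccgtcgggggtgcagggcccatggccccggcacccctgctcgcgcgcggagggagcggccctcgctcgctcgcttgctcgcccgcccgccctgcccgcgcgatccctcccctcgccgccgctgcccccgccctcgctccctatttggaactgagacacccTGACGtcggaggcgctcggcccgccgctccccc

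Nbl1 held 1 GGCGCC, starting 228 bases before the start, and 1 TGACG, starting 33 bases before it, while Bmpr2 held none of the 3 motifs in this window. GC content was 75.6% for Nbl1 and 61.2% for Bmpr2. Promoters of 9 of the 10 genes were matched by symbol. A Smad box lay in 1 of them, against 42.9% of 33469 annotated promoters of the same length. GGCGCC lay in 2, Nbl1 and Tgfbr1, against 8.69% of all, and TGACG in 2, Nbl1 and Tgfb1, against 18.2% of all. The motifs share no overlapping match in the windows printed, and a match is a description of letters only.

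Of the 12 probe sets, 6 reached the filter, for 5 of the 10 genes: both of Tgfb2, 1 of Tgfbr1, and those of Nbl1, Acvr1 and Bmpr2. The other 6, of Tgfb1, Tgfb3, Bmp4, Inhba, Bmpr1a and the second of Tgfbr1, had means below 4. The filter did not turn on the group, since each of the 6 tested probe sets lay above 4 on all 14 arrays, with 5.12 as the lowest single value. A probe set near background says little about its gene, because GCRMA compresses differences there.

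**Figure D1:**
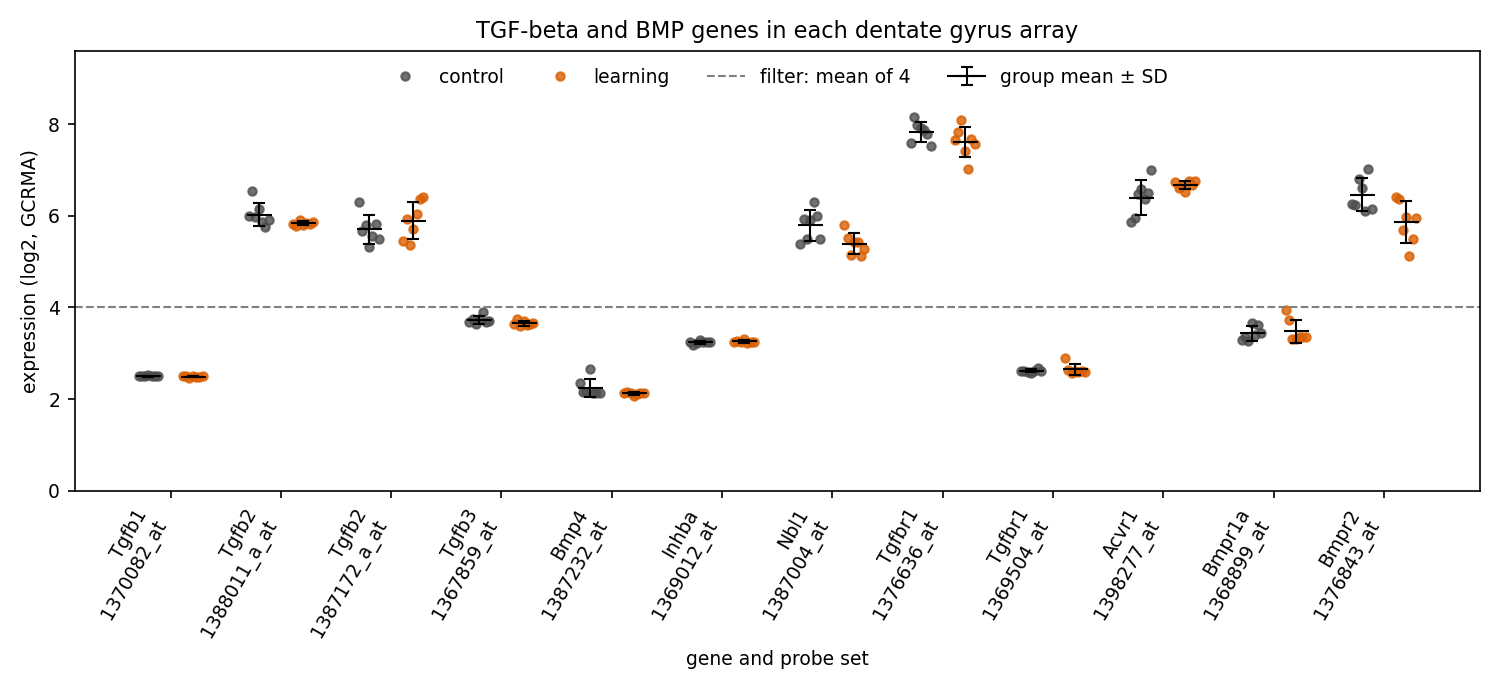
Log2 expression of the 12 probe sets of the 10 genes on every array; grey points are the 7 control rats, orange points the 7 learning rats, and bars the group mean ± SD. The dashed line is the filter at a mean of 4. Bmpr2 and Nbl1 sit lower in learning rats with overlapping groups, and the 6 probe sets under the line range over less than 1 log2 unit each.

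None of the 6 tested probe sets passed the adjusted threshold of 0.05 in limma, where the lowest adjusted p among them was 0.242. Over the whole array limma called 0 of 9387 probe sets (0%) at that threshold. At an unadjusted p below 0.05 it counted 2 of the 6, both lower in learning rats, beside 1230 of 9387 (13.1%) in either direction and 626 (6.67%) lower. The 2 are Bmpr2 and Nbl1. Groups overlapped for all 12 probe sets, and they did not overlap for 38 of 9387 (0.405%). The median difference of the 6 was -0.21 and their median absolute difference 0.25, against 0.01 and 0.08 over all probe sets tested. Their standard errors, 0.09 to 0.20, were above the median of 0.08 over all probe sets. The members were chosen with earlier results of these data known, so these counts describe them and support nothing further.

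**Figure D2:**
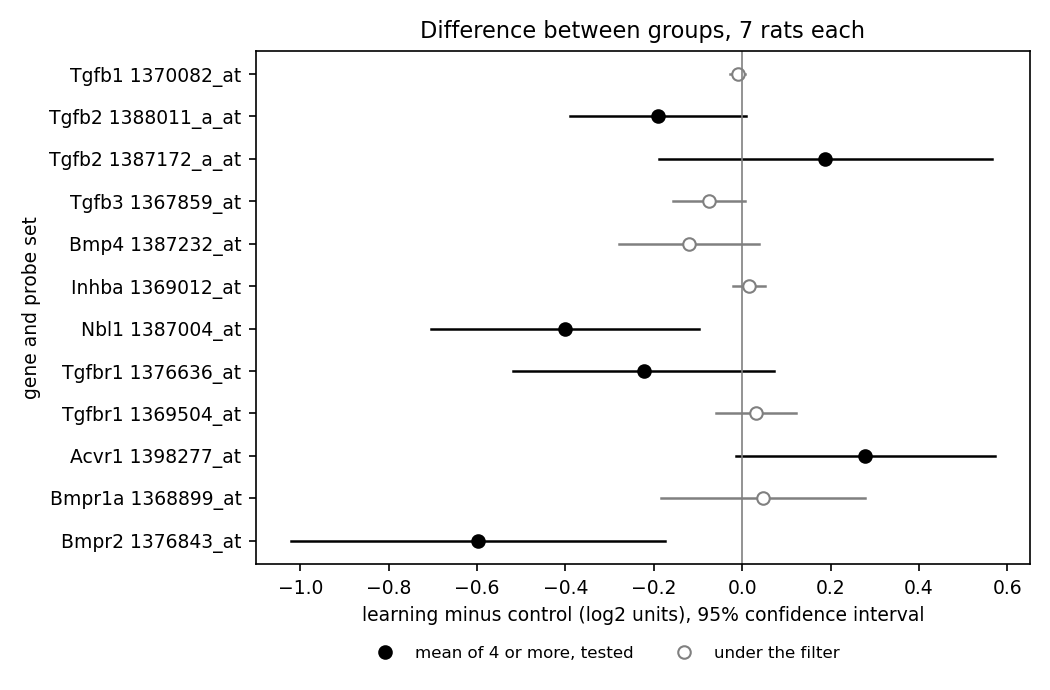
Difference between learning and control rats for each probe set, in log2 units, with the 95% confidence interval (limma); filled points had a mean of 4 or more, and open points, under the filter, take their interval from a fit with no filter. The intervals of Bmpr2 (-1.02 to -0.17) and Nbl1 (-0.70 to -0.10) lie below 0 before adjustment, and the other 10 include it.

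Among the ligands, Tgfb2 was the one above the filter. It encodes a TGF-beta isoform of neurons and glia, and its probe sets differed in sign between the groups. On probe set 1388011_a_at control rats ranged from 5.75 through a median of 5.98 to 6.53, and learning rats from 5.79 through 5.83 to 5.92. All 7 learning rats lay below the control median, within a narrow band, and 5 control rats lay above every learning rat. The difference was -0.19 ± 0.09 (SE; 95% confidence interval -0.39 to 0.01; adjusted p = 0.400 in limma; two-sided exact permutation p = 0.0367, unadjusted). Control replicate 2, at 6.53, carried much of it: without that rat the difference was -0.11. The spread was 0.26 in control and 0.04 in learning rats (SD, n = 7 each).

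Probe set 1387172_a_at of Tgfb2 went from 5.32 through 5.66 to 6.29 in control rats, and from 5.36 through 5.94 to 6.40 in learning rats. The groups covered nearly the same range, with 5 learning rats above the control median. The difference was 0.19 ± 0.18 (SE; 95% confidence interval -0.19 to 0.56; adjusted p = 0.655 in limma), and 0.10 without learning replicate 7 or 0.29 without control replicate 1. No agreement across rats was found between the probe sets. With group means removed, their Pearson r over the 14 arrays was -0.12 (permutation p = 0.703) and Spearman's rho -0.10 (permutation p = 0.730), and r was -0.14 without control replicates 2 and 6, the arrays farthest from the median. Adjusted over the 2 genes with 2 probe sets, the permutation p values were 0.904 and 0.730. Both names end in _a_at, Affymetrix's mark for probe sets that match several transcripts of 1 gene. Which transcripts each of them measures was not looked up, so the values are given per probe set and not for Tgfb2 as a whole.

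**Figure D3:**
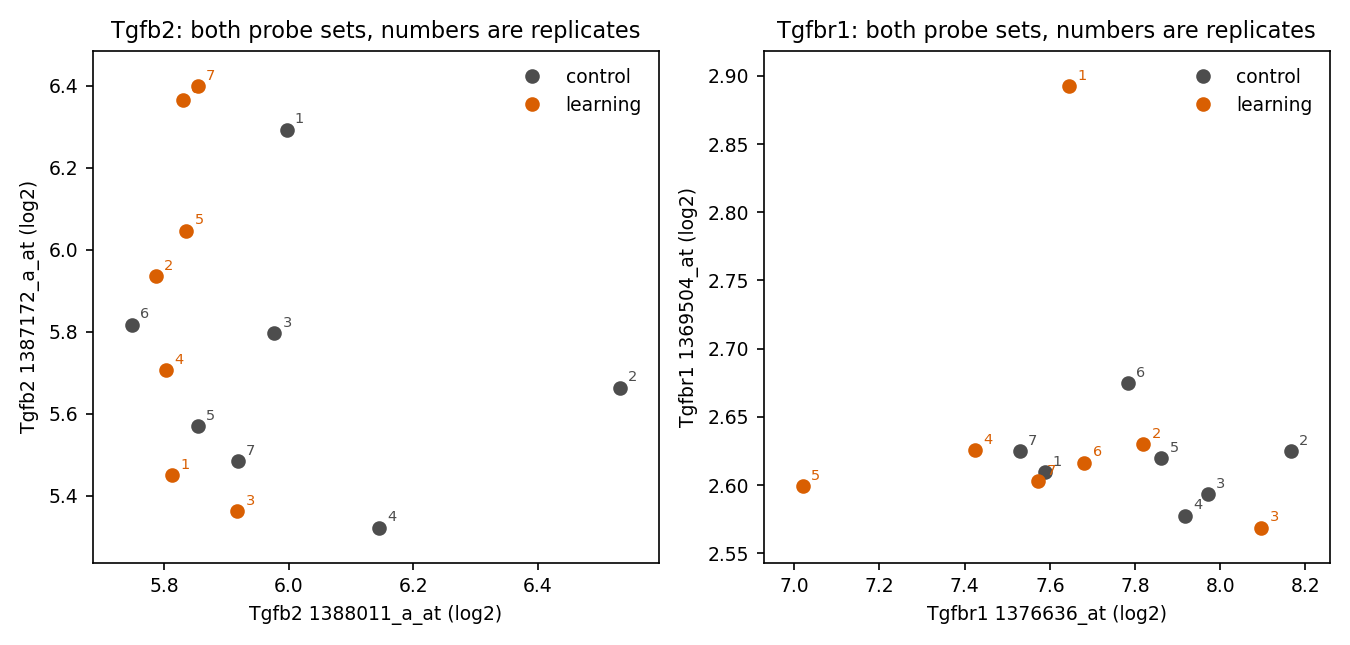
Levels on 1 probe set (x axis) and on the other (y axis) for Tgfb2 (left) and Tgfbr1 (right), in log2 units; each point is 1 rat, numbered by replicate, grey for control and orange for learning. Neither pair rises together, and the second probe set of Tgfbr1 stays between 2.57 and 2.89.

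The other ligand genes lay under the filter in both groups. Bmp4, which encodes a BMP known to restrain adult neural stem cells, ranged from 2.14 through 2.15 to 2.66 in control and from 2.07 through 2.14 to 2.16 in learning rats. Its difference of -0.12 (two-sided exact permutation p = 0.0472) came largely from control replicates 4 and 1, at 2.66 and 2.35, and was -0.05 without control replicate 4. Tgfb3, a TGF-beta isoform, ranged from 3.65 through 3.71 to 3.91 in control and from 3.60 through 3.65 to 3.75 in learning rats, a difference of -0.08 (exact permutation p = 0.0589). Tgfb1, the isoform made by microglia among other cells, stayed between 2.47 and 2.52 on all 14 arrays, and Inhba, the subunit of activin A, between 3.19 and 3.32. Their differences were -0.01 and 0.01 (exact permutation p = 0.0559 and 0.400). These p values are unadjusted over the 12 probe sets compared, and the smallest this design can give is 0.000583. At levels this close to background a small difference says little about the transcripts of Tgfb1 or Inhba in the tissue.

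Nbl1 had the lowest p of the extracellular members. Control rats ranged from 5.39 through a median of 5.90 to 6.31 and learning rats from 5.12 through 5.43 to 5.79. All 7 learning rats lay below the control median, 3 of them lay below every control rat, and 4 control rats lay above every learning rat. The group means were 5.79 ± 0.34 and 5.39 ± 0.23 (SD, n = 7 each). The difference of -0.40 ± 0.14 (SE), or 1.32-fold higher in control rats, had an adjusted p of 0.266 in limma. Its two-sided exact permutation p was 0.0239, unadjusted over the 12 probe sets. The difference lay between -0.47 and -0.31 with any 1 array left out. Of all probe sets tested, 1.64% had an absolute difference at least as large.

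Among the receptors, Bmpr2 showed the largest difference of the 12 probe sets. Control rats ranged from 6.11 through a median of 6.26 to 7.03, and learning rats from 5.13 through 5.96 to 6.40. In 5 learning rats the level was below that of every control rat, and the remaining learning rats, replicates 1 and 2 at 6.40 and 6.37, lay among the controls. The means were 6.46 ± 0.36 in control and 5.86 ± 0.46 in learning rats (SD, n = 7 each). The difference of -0.60 ± 0.20 (SE), or 1.51-fold higher in control rats, had an adjusted p of 0.242 in limma. Its two-sided exact permutation p was 0.0186, unadjusted over the 12 probe sets. With any 1 array left out the difference lay between -0.69 and -0.48. An absolute difference at least as large was found for 0.213% of all probe sets tested.

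Acvr1 encodes the type I receptor ALK2, which signals for BMPs through Smad1 and Smad5. It was higher in learning rats by 0.28 ± 0.14 (SE; 95% confidence interval -0.01 to 0.57; adjusted p = 0.400 in limma; exact permutation p = 0.0956). Control rats spread from 5.86 through 6.48 to 6.99 and learning rats from 6.52 through 6.67 to 6.76, so the learning range lay inside the control range and all 7 learning rats were above the control median. The SD was 0.39 in control and 0.09 in learning rats. Without control replicate 1, the lowest array, the difference was 0.19, and without control replicate 7, the highest, it was 0.38.

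Tgfbr1, which encodes the type I receptor ALK5 of the TGF-beta isoforms, was measured above the filter by probe set 1376636_at. Control rats ranged from 7.53 through 7.86 to 8.17 and learning rats from 7.02 through 7.65 to 8.10. The groups overlapped over most of their range, with 6 of 7 learning rats below the control median. The difference was -0.22 ± 0.14 (SE; 95% confidence interval -0.52 to 0.07; adjusted p = 0.508 in limma; exact permutation p = 0.169), and -0.12 without learning replicate 5, the lowest array. The second probe set, 1369504_at, had a mean of 2.63 and differed by 0.03 (exact permutation p = 0.742), or by -0.01 without learning replicate 1. With group means removed the probe sets gave Pearson r = -0.03 (permutation p = 0.904) and Spearman's rho = -0.12 (permutation p = 0.693), and r = 0.0030 without the learning replicates 3 and 5. Because 1369504_at stayed near background, between 2.57 and 2.89, these values cannot show whether the probe sets agree. Bmpr1a, which encodes the BMP type I receptor ALK3, lay under the filter. It ranged from 3.27 through 3.41 to 3.66 in control and from 3.30 through 3.36 to 3.94 in learning rats, a difference of 0.05 (exact permutation p = 0.682), which was -0.03 without learning replicate 1.

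No relation among the 6 tested probe sets passed adjustment. Over their 15 pairs, with group means removed, Pearson r ran from -0.44 to 0.41, and the lowest permutation p adjusted over the pairs was 0.593. Bmpr2 and Nbl1, both lower in learning rats, had r = 0.26 (permutation p = 0.362) and rho = 0.29 (permutation p = 0.310), and r was 0.47 without control replicates 5 and 1, the arrays farthest from the median of Nbl1. For each gene above the filter, the genes of most similar pattern were named by the highest Pearson r of residuals over the 14 arrays, as a description with no test. They were picked as the highest of the 6697 genes tested, which share arrays and normalization. For Bmpr2 these were Klhl9 and Hibch, both at r = 0.86, for Nbl1 they were Zfhx4 at 0.88 and Adcy2 at 0.84, and for Acvr1 they were Ipo11 at 0.90 and Stx7 at 0.88. For Tgfbr1 they were Pnrc1 at 0.90 and Chn1 at 0.88, and for Tgfb2 1388011_a_at they were H2ax at 0.90 and Steap3 at 0.87. Leaving out the 2 arrays farthest from the median lowered Steap3 to 0.26, and the other 9 stayed between 0.71 and 0.84.

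Other genes of the pathway were taken from 5 lists of 86 genes by role. Of these, 39 were tested, each by its brightest probe set: 15 lay above and 24 below the control mean in learning rats, and their median difference was -0.04 against 0.0018 over all 6697 genes tested. None passed the adjusted threshold in limma, where 0 of 6697 did. At an unadjusted p below 0.05 there were 7 of 39 (17.9%), 5 higher and 2 lower, beside 12.6% of all genes, 5.99% higher and 6.66% lower. With lists of 3 to 14 tested genes, 1 gene more or less moves these shares.

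**Figure D4:**
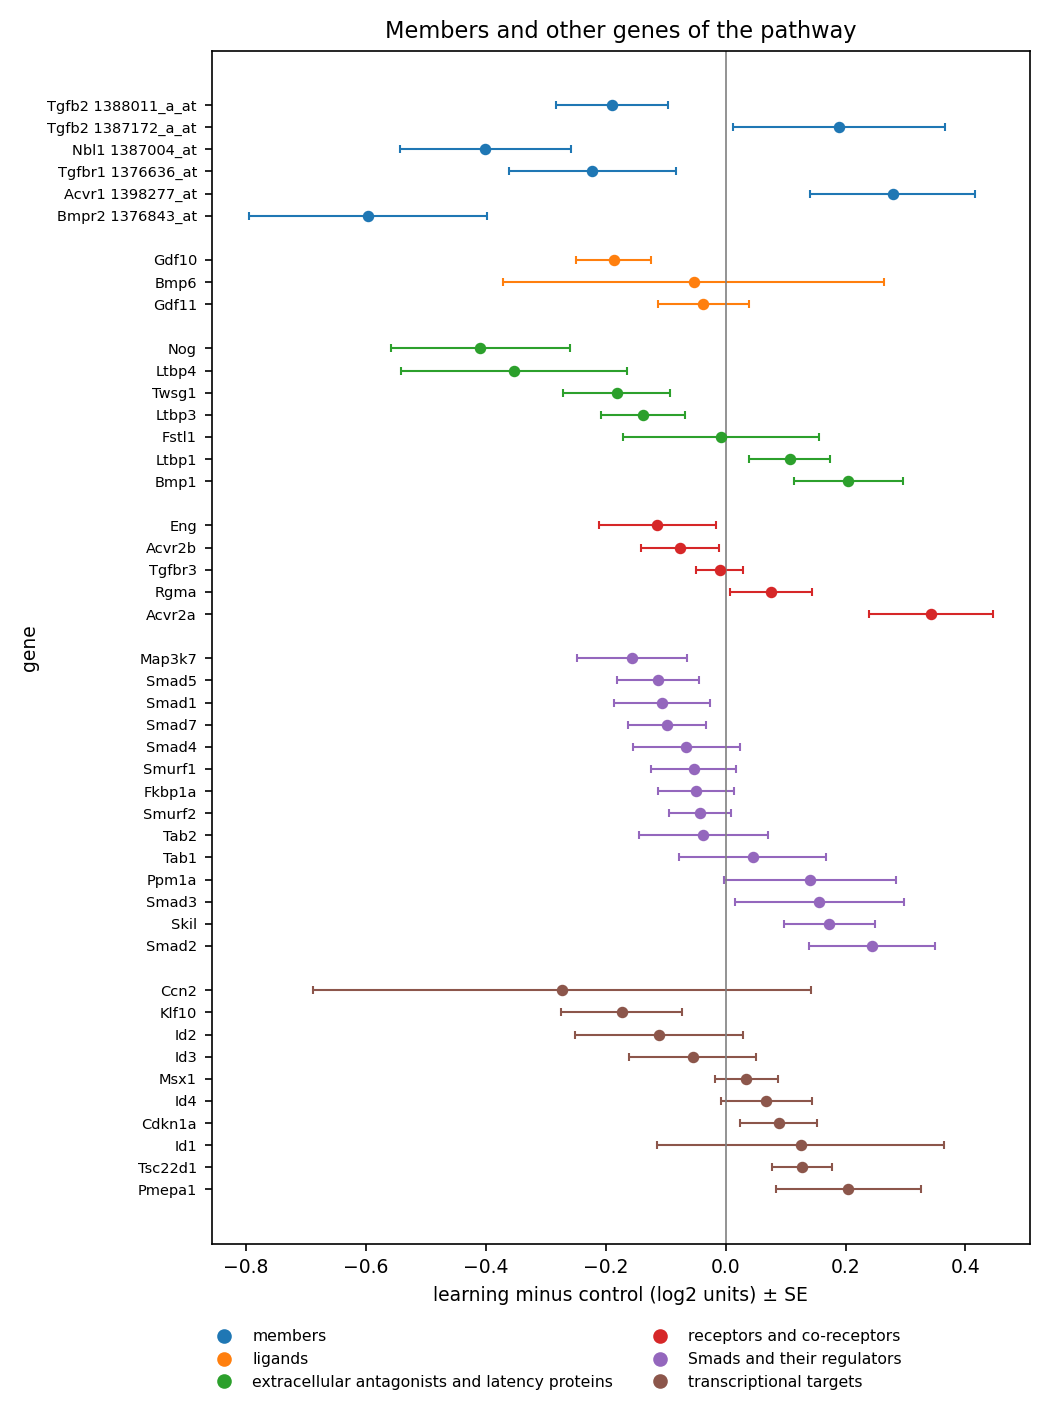
Learning minus control, in log2 units ± SE (limma), for the 6 tested probe sets of the members and the 39 tested genes of the 5 pathway lists, coloured by role. Bmpr2, Nog and Nbl1 have the lowest values, at -0.60, -0.41 and -0.40, and Acvr2a the highest at 0.34; none passed the adjusted threshold.

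Outside the cell, Nog, which encodes the BMP antagonist noggin, differed by -0.41 ± 0.15 (SE; adjusted p = 0.280 in limma), close in size to Nbl1. Its control rats lay between 5.54 and 6.43 and its learning rats between 5.09 and 5.58, so the groups overlapped narrowly. Twsg1, which encodes a BMP-binding protein, differed by -0.18 and Bmp1, a protease that cleaves the BMP antagonist chordin, by 0.20. In all, 2 of 7 genes for antagonists and latency proteins were higher and 5 lower. Of the ligands 3 of 19 were tested and all 3 were lower: Gdf10 by -0.19 ± 0.06 (SE; adjusted p = 0.245 in limma), Gdf11 by -0.04 and Bmp6 by -0.05, with 0.17 on the other probe set of Bmp6.

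Receptors other than the members were split, with 2 of 5 higher. Acvr2a, which encodes a type II receptor of activins and of some BMPs, was higher by 0.34 ± 0.10 (SE; adjusted p = 0.233 in limma), opposite in sign to Bmpr2. Control rats lay between 6.09 and 6.87 and learning rats between 6.56 and 6.98. Eng, the co-receptor endoglin of endothelium, differed by -0.11 and Acvr2b, the paralog of Acvr2a, by -0.08.

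Inside the cell, 5 of 14 Smads and regulators were higher and 9 lower. Smad2, a transducer of TGF-beta and activin signals, differed by 0.24 ± 0.11 (SE; adjusted p = 0.348 in limma), Skil, a repressor of Smads, by 0.17 and Map3k7, the kinase TAK1, by -0.16. Of the transcriptional targets 6 of 10 were higher and 4 lower, among them Tsc22d1 at 0.13 ± 0.05 (SE; adjusted p = 0.315 in limma), Klf10 at -0.17 and Pmepa1 at 0.20. The Id genes, direct BMP targets, differed by 0.12 for Id1, -0.11 for Id2, -0.05 for Id3 and 0.07 for Id4, with -0.13 on the other probe set of Id4.

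Markers of cell types in or near the dissected tissue were averaged per array. Granule cell markers, led in level by Calb1 and Prox1, had a mean of 9.17 to 9.47 in control and 9.37 to 9.59 in learning rats over 4 of 7 listed genes, a difference of 0.19. It came from Dsp and Sema5a, at 0.44 and 0.29, while Calb1 and Prox1 differed by -0.03 and 0.08. CA1 markers (6 of 7 genes, led by Itpka and Lmo3) differed by 0.31, with 6.79 to 7.88 in control and 7.28 to 7.75 in learning rats. Wfs1 differed by 0.95 (0.43 on its other probe set), Mpped1 by 0.37, Fibcd1 by 0.31 and Ccn3 by 0.30. Itpka and Lmo3 differed by -0.05 and 0.0025. Microglial markers (8 of 11, led by Ctss and Csf1r) differed by -0.16, with 7.03 to 7.55 and 7.09 to 7.30. Aif1 differed by -0.37, P2ry12 by -0.33 (-0.03 on its other probe set), C1qc by -0.29 and C1qa by -0.22. Ctss and Csf1r differed by -0.02 and -0.06, Tyrobp by -0.001 and C1qb by 0.04. Meningeal and fibroblast markers (10 of 13, led by Ptgds and Slc6a20a) differed by -0.29, with 5.23 to 7.69 and 5.05 to 7.89. Of 7 choroid plexus markers only Ttr and Enpp2 reached the filter, with a difference of -0.91, which came from Ttr, while Kl, Folr1, Cldn2, Sostdc1 and F5 were below 4. Means of the astrocyte (S100b, Apoe), oligodendrocyte (Mbp, Mobp), endothelial (Cldn5, Slc2a1) and CA3 (Chgb, Cadm1) lists differed by -0.05, -0.01, 0.02 and 0.01. The CA3 mean averaged opposite differences: Bok, Chgb and Grik4 differed by 0.29, 0.16 and 0.13, and Cadm1 and Elavl4 by -0.27 each. In exact permutation tests adjusted over the 9 lists, p was 0.0210 for granule cells, 0.00524 for the choroid plexus genes and 0.126 for CA1 and for microglia. The lists were chosen with earlier results of these data known, so these p values describe them and support nothing further. In bulk tissue fewer cells of a type and less RNA per cell cannot be told apart.

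With the CA1 marker mean as covariate the difference of Bmpr2 was -0.45 (adjusted p = 0.482 in limma) and that of Nbl1 -0.53 (adjusted p = 0.301 in limma). With the meningeal mean they were -0.58 and -0.38 (adjusted p = 0.296 and 0.326 in limma). With the microglial mean they were -0.55 ± 0.24 and -0.46 ± 0.17 (SE; adjusted p = 0.856 for both in limma). With the microglial mean the differences of the Tgfb2 probe sets were -0.08 for 1388011_a_at and 0.08 for 1387172_a_at. The part of granule cell and choroid plexus markers in these values was not tested. Over all 14 arrays, with group means removed, no tested probe set was related to the meningeal mean after adjustment over the 6. Pearson r was -0.60 for Tgfb2 1387172_a_at (permutation p = 0.0248, adjusted 0.149), with rho = -0.56 (permutation p = 0.0395, adjusted 0.237) and r = -0.72 without learning replicate 4 and control replicate 3. For the other 5 probe sets r lay between -0.01 and 0.32. Without the same arrays it was 0.46 for Nbl1 and 0.48 for Tgfbr1, and for the rest it ran from -0.002 for Bmpr2 to 0.14 for Tgfb2 1388011_a_at. The meningeal mean has a gap, with 8 arrays up to 6.08 and 6 arrays from 6.77. For Tgfb2 1387172_a_at r was -0.16 over the lower 8 and 0.60 over the upper 6, and for 1388011_a_at it was 0.88 and -0.50. In the same order it was 0.02 and -0.22 for Nbl1, 0.39 and -0.41 for Tgfbr1, -0.19 and -0.82 for Acvr1, and -0.33 and -0.31 for Bmpr2. These values are a description with no test. Control replicate 2, at 6.53 on 1388011_a_at, had the highest meningeal mean of the lower 8, at 6.08. Sets this small, each over a narrower range of the meningeal mean, cannot show whether a relation holds.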

How the data were processed

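Dentate gyrus RNA of 14 rats, 7 per group, was hybridised to 1 array per rat, and the titles gave each rat its group and number. The deposited log2 levels come from GCRMA, according to the submitters' processing notes, which name no version or settings; no batch or scan date was used. Array medians lay between 5.09 and 5.12.

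Gene names came from the platform annotation: 12783 of 15866 probe sets other than controls had 1 symbol, 312 several and 2771 none. The difference of learning from control was estimated by limma 3.58.1 (lmFit, eBayes; R 4.3.3), without covariates, on the 9387 probe sets averaging 4 or more, and p values were adjusted by Benjamini-Hochberg over all of them. The fit was checked on simulated data. Single values were compared by two-sided exact permutation over all 3432 assignments of arrays to groups. For the member probe sets these p values are unadjusted. Correlations used 100000 permutations. Pathway and marker genes were read from their brightest probe set.

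The members and lists were chosen with earlier results of these data known. Named were every member, the 3 genes of smallest p per pathway list, the 2 brightest genes of each marker list, and the 2 genes most like each member. Id1, Id2, Id3, Id4, Fstl1, Ccn2, Dsp, Sema5a, Wfs1, Mpped1, Fibcd1, Ccn3 and the choroid plexus genes fall outside this rule and were chosen after their values were seen. The same holds for Bok, Grik4, Elavl4, Aif1, P2ry12, C1qa, C1qb, C1qc and Tyrobp. Alternatives were other filters, normalizations, priors, weights, covariates and each array left out.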

Additional observations from a re-analysis of the deposited data

Results flagged for a closer look

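In 6 of the 24 sets of 7 values (12 probe sets in 2 groups), 1 array stood apart, with a gap to its neighbour over the range of the group above Dixon's critical value of 0.568. Chance gives this in about 1 of 20 sets of normally distributed values. Values near background need not follow that distribution, so no excess is read from the count. All 6 concern probe sets under the filter, where the gaps are small in log2 units. Tgfb1 was highest in control replicate 4 (2.52, ratio 0.840) and lowest in learning replicate 3 (2.47, ratio 0.652). Bmp4 was highest in control replicate 4 (2.66 against 2.35 for the next array, ratio 0.600) and lowest in learning replicate 4 (2.07, ratio 0.571). Tgfb3 was highest in control replicate 5 (3.91 against 3.76, ratio 0.581), and its difference was -0.05 without that array. Tgfbr1 1369504_at was highest in learning replicate 1 (2.89 against 2.63, ratio 0.812), and its difference was -0.01 without it, against 0.03 with all arrays.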

How the results depend on the processing

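The 6 tested probe sets of the members kept their sign under all 26 alternatives, 12 other settings and 14 arrays left out, and none passed the adjusted threshold in any; the lowest adjusted p was 0.194, for Acvr1 without control replicate 7. The count of members at an unadjusted p below 0.05 was 2, or 1 with the CA1 marker mean as covariate, and 2 to 3 with 1 array left out. For the pathway genes the count of 7 became 2 with the microglial marker mean as covariate and ran from 3 to 10 with 1 array left out, with 3 without learning replicate 7. Over all probe sets the count of 1230 became 536 with the microglial marker mean. The count past the adjusted threshold was 0, or 0 to 1 with 1 array left out: it was 1 without control replicate 6, learning replicate 1 or learning replicate 4, no member or pathway gene in any of these. The cause of these changes was not tested. With the replicate number as a block the counts at an unadjusted p below 0.05 were 2 members, 7 pathway genes and 1330 probe sets. No probe set passed the adjusted threshold with or without the block. The labels do not say that a number marks a shared litter, batch or day. Same-numbered arrays had residual correlations of -0.28 to 0.26, above 0.1 in 4 of 7 pairs, and 4 of 7 control arrays correlated best with the learning array of their own number, where about 1 would without pairing. This is a hint from the data, short of a correlation above 0.1 in every pair, so the fit without the block was kept. Among the 6 probe sets under the filter, the Bmp4 difference of -0.12 became -0.06 with array weights and -0.03 with the microglial marker mean. Without control replicate 4 it was -0.05. Without learning replicate 1 the sign turned for Bmpr1a (0.05 to -0.03) and Tgfbr1 1369504_at (0.03 to -0.01), and the floor at 3 sets Tgfb1, Bmp4 and Tgfbr1 1369504_at to no difference by construction.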

Other observations

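On their brightest probe sets, some pathway genes differed far more between rats of a group than between the groups. Ccn2, which encodes connective tissue growth factor, ranged from 5.50 to 7.55 in control and from 5.21 to 7.45 in learning rats. Bmp6, a BMP ligand, ranged from 5.52 to 7.28 and from 5.63 to 7.27, and Fstl1, a secreted follistatin-like protein, from 5.99 to 6.98 and from 5.99 to 6.90. Their other tested probe sets differed by 0.17 for Bmp6 and -0.28 for Fstl1, and the spread of these is not given. These 3 of the 39 pathway genes were picked after their spreads, and their values beside the meningeal marker mean, had been seen. Whether they vary with that mean was not tested.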
